A study of Rattus norvegicus with 8 samples.

Results

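Antigen presentation and macrophage transcripts were examined in rat tibialis anterior, a hind limb muscle with mostly fast fibres. The set held the genes whose single platform symbol starts with RT1-, the rat major histocompatibility complex, and 24 genes chosen by name. It came to 42 genes of the 14217 with a probe set of 1 symbol, 15 of class I antigen presentation, 8 of class II and 19 of macrophages and other leukocytes. Each gene was represented by its brightest probe set, and 34 of the 42 lay above the filter on low values (11 of class I, all 8 of class II and 15 of macrophages). The hyperthyroid group was 4 Sprague-Dawley rats given intraperitoneal T3, the thyroid hormone triiodothyronine, for 6 weeks. Each dose was 25 µg for each 100 g of rat, 1 dose came every 2 days, and muscle was taken 24 hours after the final one. The 4 control rats were untreated, so that the groups also differed in the injections. All 8 were adults of 200 ± 40 g at the start, 3 males and 1 female in each group, with 1 array per rat, and the labels do not say which array is a female's.

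Class I molecules carry peptides of cytosolic proteins to the cell surface for CD8 T cells. They pair a heavy chain with beta-2-microglobulin and are loaded with peptides that the TAP transporter brings into the endoplasmic reticulum. Class II molecules are made mainly by macrophages, dendritic cells and B cells, present peptides of engulfed material to CD4 T cells, and depend on the coactivator CIITA and the invariant chain CD74. Resting skeletal muscle fibres carry little class I and no class II, while resident macrophages, marked by CD163 and the mannose receptor, lie in the connective tissue between them.

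The proximal promoters of class II genes share boxes through which CIITA is recruited. One of them, the Y box, is bound by NF-Y and has the core ATTGG. The windows of 250 bases before the annotated start of 3 class II genes and of B2m are shown because these are the chains whose levels are set side by side below. They are written 5′ to 3′ on the gene's strand, from RefSeq (build GRCr8), with capitals marking ATTGG on either strand and the core of the interferon-stimulated response element, which is GAAA, any 2 bases and GAAA again. The places are chr20:4515165-4515414 on the plus strand, chr20:4576807-4577056 on the plus strand, chr20:4560163-4560412 on the minus strand and chr3:129549080-129549329 on the plus strand.
RT1-Da: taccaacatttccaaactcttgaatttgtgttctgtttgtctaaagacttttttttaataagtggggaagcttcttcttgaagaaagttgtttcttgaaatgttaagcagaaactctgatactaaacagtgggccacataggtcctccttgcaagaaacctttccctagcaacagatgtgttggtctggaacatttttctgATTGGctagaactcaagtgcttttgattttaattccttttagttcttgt
RT1-Ba: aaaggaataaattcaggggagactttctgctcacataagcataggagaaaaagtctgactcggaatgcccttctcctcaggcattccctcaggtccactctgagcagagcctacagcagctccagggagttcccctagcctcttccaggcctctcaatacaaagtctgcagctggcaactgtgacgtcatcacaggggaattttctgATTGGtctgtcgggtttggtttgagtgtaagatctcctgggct
RT1-Db1: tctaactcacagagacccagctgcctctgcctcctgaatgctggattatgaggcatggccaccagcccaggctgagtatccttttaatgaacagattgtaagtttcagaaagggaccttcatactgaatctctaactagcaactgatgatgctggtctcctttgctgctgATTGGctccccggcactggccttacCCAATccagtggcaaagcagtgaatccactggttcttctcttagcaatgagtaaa
B2m: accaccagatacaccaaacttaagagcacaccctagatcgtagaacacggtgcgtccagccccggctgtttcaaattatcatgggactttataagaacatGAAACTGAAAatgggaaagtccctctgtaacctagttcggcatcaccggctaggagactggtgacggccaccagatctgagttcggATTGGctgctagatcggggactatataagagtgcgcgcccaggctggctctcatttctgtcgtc
ATTGG on the gene's strand began 49 bases before the start of RT1-Da, 43 before that of RT1-Ba, 80 before that of RT1-Db1 and 64 before that of B2m. On either strand it was found in all 6 class II members with a window, 10 of 14 of class I and 8 of 13 of macrophages, and in 34% of 33469 RefSeq windows of this length. The interferon-stimulated core was found in none of the 6, in 5 of 14 and in 1 of 13, and in 3.41% of all windows. The gamma-activated site TTCNNNGAA was found in none of the 6, in 1 of 14 and in 2 of 13, and in 7.67% of all windows. All motifs were searched on both strands, no match of 1 motif overlapped a match of another in these members, and a match describes the sequence only.

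No member differed between the groups after adjustment over the 10200 genes tested. Among the 34 tested, none had a limma adjusted p under 0.05, against 0.0686% of all genes higher and 0% lower. At an unadjusted p under 0.05, 3 of the 34 were higher in the hyperthyroid group (5.38% of all genes) and none was lower (5.21% of all genes). These 3 were 1 from each list, RT1-CE16 of class I, RT1-Da of class II and Cd14 of macrophages. Their smallest limma adjusted p was 0.409, for RT1-CE16. This gene passed the filter only through its hyperthyroid arrays, so its place in the count supports nothing. The arrays of both groups were fully apart for 1 of the 34, RT1-T24-3, which was lower in the hyperthyroid group (3.21% of all genes), and for none in the other direction (3.34%, or 6.55% in either direction). The signals come from whole muscle, in which fewer cells of a type and less RNA per cell cannot be told apart.

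By list, the median log2 fold change of hyperthyroid over control was 0.11 for the 11 class I genes, 0.16 for the 8 class II genes and 0.10 for the 15 macrophage genes, and -0.00029 over all genes tested. Log2 fold changes lay above 0 for 7 of 11, 6 of 8 and 10 of 15 genes, against 50% of all genes. Of those above 0, RT1-CE16, RT1-A3 and Laptm5 passed the filter, on the probe sets used, only through hyperthyroid arrays. Of those below 0, Aif1 and Cd68 passed it only through control arrays. With 1 array left out at a time the medians ran from -0.086 to 0.27 for class I, from -0.058 to 0.49 for class II and from -0.12 to 0.52 for macrophages. The class I median turned below 0 without hyperthyroid replicate 3 or control replicate 9, that of class II without control replicate 8, and that of macrophages without control replicate 8, hyperthyroid replicate 3 or hyperthyroid replicate 5. The intervals were wide: they reached from -0.50 to 1.25 for Cd74 and from -2.25 to 1.78 for Cd68 (95%, log2).

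**Figure D1:**
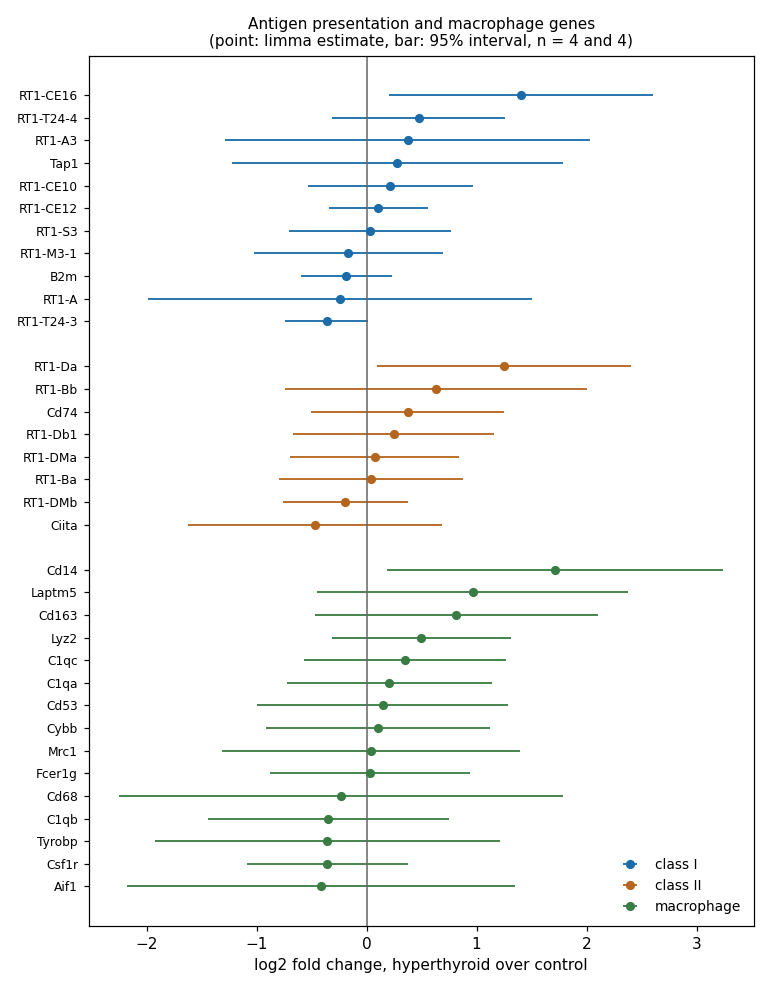
Log2 fold change of hyperthyroid over control (x axis) for the 34 tested genes (y axis), grouped by list, with the limma estimate as a point and its 95% interval as a bar. The intervals of RT1-CE16, RT1-Da and Cd14 lie above 0 before adjustment for the 10200 genes tested, and all the others include 0. RT1-CE16 passed the filter on low values only through its hyperthyroid arrays.

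Among the class II genes, RT1-Da showed the largest log2 fold change. RT1-Da encodes the alpha chain of the rat counterpart of human HLA-DR. Its intensity was 437, 268, 778 and 1047 on hyperthyroid replicates 1, 2, 3 and 5, against 178, 96.2, 218 and 767 on control replicates 7, 8, 9 and 11. All 4 hyperthyroid arrays lay above 3 of the control arrays, while control replicate 11 was as high as hyperthyroid replicate 3. The means were 633 ± 348 and 315 ± 306 (SD, n = 4 each), and the log2 fold change was 1.25 ± 0.53 (SE, limma adjusted p = 0.441). Without control replicate 11 it was 1.82 (limma adjusted p = 0.269), and without control replicate 8 it was 0.83.

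The beta chain of the same molecule had a smaller estimate, and the difference between the chains was not tested. RT1-Db1, on a probe set of the _s_at type that matches more than 1 transcript, averaged 108 ± 49.5 on the hyperthyroid arrays, against 93.3 ± 56.1 on the control arrays (SD, n = 4 each). Its log2 fold change was 0.25 ± 0.42 (SE), with a 95% interval from -0.67 to 1.16.

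Cd74, the invariant chain that guides class II molecules to the peptide-loading compartment, had intensities of 350.1, 238, 654 and 815 on the hyperthyroid arrays and 375, 241, 232 and 745 on the control arrays, in the same order of replicates. Each group held low and high arrays, and the ranges of the groups overlapped almost wholly. The log2 fold change was 0.37 ± 0.41 (SE, limma adjusted p = 0.788).

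RT1-Ba and RT1-Bb encode both chains of the rat counterpart of HLA-DQ. For RT1-Ba the arrays read 241, 77.4, 224 and 164 in hyperthyroid muscle, against 127, 122, 120.2 and 328 in control muscle. On this probe set the lowest array was thus hyperthyroid and the highest was control replicate 11. The other 3 probe sets of RT1-Ba above the filter gave log2 fold changes of 0.17, 0.92 and 0.60, and on the one with 0.92 control replicate 11 read 26.1 and 3 hyperthyroid arrays lay above every control. With its probe sets averaged RT1-Ba gave 0.43 (limma adjusted p = 0.784). RT1-Bb read 95.8, 41.5, 45.3 and 102 in hyperthyroid muscle, against 53.6, 6.57, 72.2 and 89.1 in control muscle, where control replicate 8 was the low one. On the brightest probe sets the log2 fold changes were 0.04 ± 0.39 for RT1-Ba and 0.63 ± 0.63 for RT1-Bb (SE).

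DM, the class II-like exchanger that helps peptides bind, is encoded by RT1-DMa and RT1-DMb, and Ciita is the coactivator of class II promoters. RT1-DMb had 116, 147, 73.2 and 169.6 in hyperthyroid muscle, against 124, 136, 140.2 and 156 in control muscle, where the arrays were close together. RT1-DMa averaged 62.2 ± 19.4 and 57.9 ± 14.5 (SD, n = 4 hyperthyroid and 4 control arrays). For Ciita the values were 14.6, 33.9, 54.8 and 63.9 in hyperthyroid muscle, against 60.9, 71.4, 76.1 and 21.8 in control muscle. Its lowest arrays were hyperthyroid replicate 1 and control replicate 11. The second probe set of Ciita was also lowest on hyperthyroid replicate 1 (8.30), but read 51.6 on control replicate 11, the second highest array there, and gave a log2 fold change of -0.66. The log2 fold changes were -0.19 ± 0.26 for RT1-DMb, 0.07 ± 0.35 for RT1-DMa and -0.47 ± 0.53 for Ciita (SE), none past the test.

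**Figure D2:**
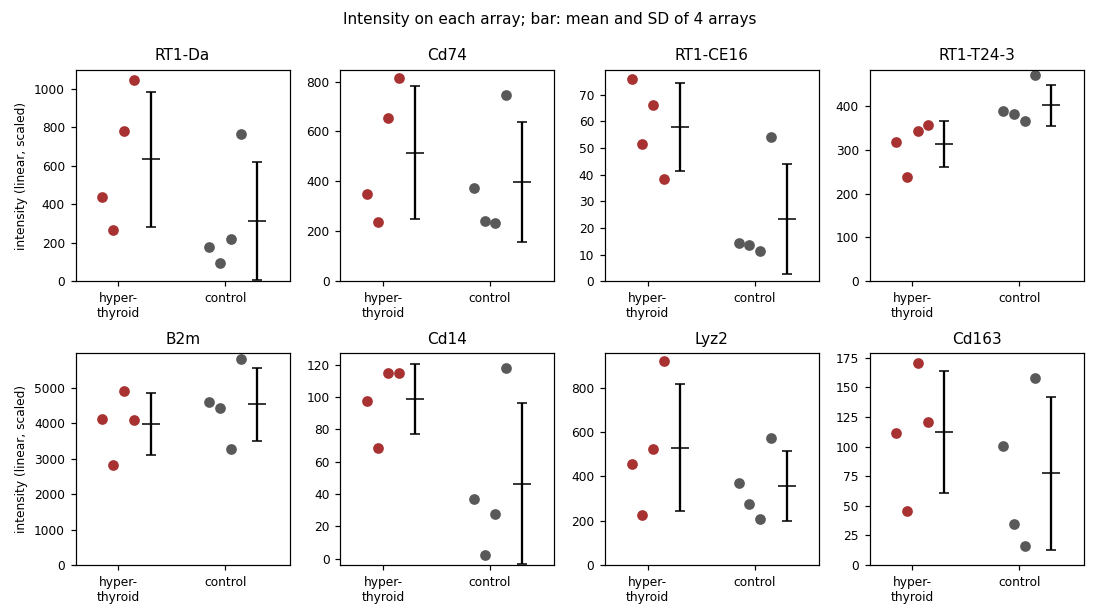
Linear intensity (y axis) of 8 genes on the 4 hyperthyroid (left) and 4 control (right) arrays, 1 point per rat in order of replicate number, with mean and SD beside them. In RT1-Da and RT1-CE16 control replicate 11 lies among the hyperthyroid arrays, in Cd14 it lies above them, and in these 3 genes the other controls lie below every hyperthyroid array, while in RT1-T24-3 the groups do not overlap.

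Class I heavy chains gave no common direction. The RT1 class I genes form a family of closely related sequences, and 6 of the brightest probe sets below (RT1-CE16, RT1-CE12, RT1-CE10, RT1-CE5, RT1-T24-4 and RT1-S3) are of the _x_at type, which holds probes shared with other transcripts, so their signal may belong to more than 1 gene. Sprague-Dawley rats are outbred, and the labels give no RT1 haplotype for any rat.

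RT1-CE16, a heavy chain of the class Ib region, had 75.7, 51.4, 66.0 and 38.3 on hyperthyroid replicates 1, 2, 3 and 5, against 14.4, 13.6, 11.4 and 54.0 on control replicates 7, 8, 9 and 11. As for RT1-Da, control replicate 11 was the only control inside the hyperthyroid range. The order of the hyperthyroid arrays differed, with replicate 5 the lowest of them here and the highest for RT1-Da. The means were 57.9 ± 16.5 and 23.4 ± 20.5 (SD, n = 4 each), with a log2 fold change of 1.40 ± 0.55 (SE, limma adjusted p = 0.409), and of 1.85 without control replicate 11 (limma adjusted p = 0.343). On the log2 scale the control arrays averaged below the filter, so RT1-CE16 passed it only through the hyperthyroid arrays. The size of its fold change depended on the handling of low values. It was 1.08 with a pseudocount of 12.6 and 1.59 with a floor in place of the pseudocount.

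RT1-T24-3, also of class Ib, had 318, 238, 342 and 356 in hyperthyroid muscle, against 388, 381, 367 and 471 in control muscle. Every hyperthyroid array was below every control array, but the gap between 356 and 367 was small. The log2 fold change was -0.36 ± 0.17 (SE, limma adjusted p = 0.486). It came to -0.14 with arrays centred on their medians and -0.04 with arrays scaled to the hybridization controls, settings that moved the median of all genes by 0.22 and 0.32. RT1-T24-4 had 327, 286, 349 and 267 in hyperthyroid muscle, against 219, 184, 106 and 533 in control muscle, with control replicate 11 above all the others and a log2 fold change of 0.47 ± 0.36 (SE).

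B2m, the light chain of all class I molecules, had 4116, 2813, 4921 and 4093 in hyperthyroid muscle, against 4609.6, 4416, 3282 and 5817 in control muscle. The ranges overlapped, with hyperthyroid replicate 2 lowest and control replicate 11 highest. The log2 fold change was -0.18 ± 0.19 (SE, limma adjusted p = 0.774), with a 95% interval from -0.60 to 0.23, and the second probe set of B2m gave -0.11. Its sign turned with arrays centred on their medians (0.036) or scaled to the hybridization controls (0.14).

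Peptide transport into the endoplasmic reticulum was measured less well. Tap1, a subunit of the transporter, had 50.9, 37.0, 36.1 and 26.4 in hyperthyroid muscle, against 32.2, 73.6, 3.74 and 57.1 in control muscle, and its log2 fold change was 0.28 ± 0.70 (SE). The control arrays spread far more than the hyperthyroid ones. Tap2, the partner subunit, lay under the filter and had means of 28.6 ± 11.9 and 15.5 ± 11.4 (SD, n = 4 hyperthyroid and 4 control arrays).

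RT1-CE10 had 66.1, 77.7, 50.3 and 52.4 in hyperthyroid muscle, against 65.6, 37.1, 44.04 and 66.6 in control muscle, a log2 fold change of 0.22 ± 0.35 (SE). The other tested class I heavy chains were RT1-CE12, RT1-S3, RT1-A3, RT1-A and RT1-M3-1, the last of which is known in mouse to present formylated peptides. They had log2 fold changes of 0.11, 0.03, 0.37, -0.24 and -0.17, and the groups overlapped in all 5. RT1-A3 passed the filter only through its hyperthyroid arrays. RT1-A of the classical class Ia region was low on 1 array of each group, 4.90 on hyperthyroid replicate 2 and 4.82 on control replicate 8, with the other 6 arrays from 32.8 to 62.1. RT1-N2, RT1-N3 and RT1-CE5 lay under the filter. They averaged 24.3 ± 14.6, 30.9 ± 17.8 and 16.7 ± 19.6 on hyperthyroid arrays, against 27.3 ± 22.1, 14.2 ± 14.0 and 36.7 ± 25.1 on control arrays (SD, n = 4 each). This probe set of RT1-CE5 had a log2 fold change of -1.13. Its other probe sets, all under the filter, gave 0.47, 1.18, 1.44 and -0.29.

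Of the macrophage genes, Cd14 had the largest log2 fold change. CD14 is the co-receptor through which Toll-like receptor 4 senses lipopolysaccharide. Its intensity was 97.5, 68.6, 115 and 115 on hyperthyroid replicates 1, 2, 3 and 5, against 37.1, 2.32, 27.9 and 118 on control replicates 7, 8, 9 and 11. Control replicate 11 was again the highest array, and the 3 other controls lay below every hyperthyroid array. The means were 98.9 ± 21.8 and 46.3 ± 49.9 (SD, n = 4 each), with a log2 fold change of 1.71 ± 0.71 (SE, limma adjusted p = 0.436). It was 2.37 without control replicate 11 and 0.91 without control replicate 8, whose value of 2.32 is below the pseudocount of 3.41.

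The scavenger receptor for haemoglobin, Cd163, had 111, 45.5, 171 and 121 in hyperthyroid muscle, against 100.4, 34.7, 16.4 and 158 in control muscle. Both groups held low and high arrays, and the log2 fold change was 0.81 ± 0.59 (SE, limma adjusted p = 0.66). Mrc1, the mannose receptor of resident macrophages, had means of 163 ± 89.8 and 196 ± 168 (SD, n = 4 hyperthyroid and 4 control arrays) and a log2 fold change of 0.04 ± 0.63 (SE). Csf1r, the receptor for the growth factor that maintains macrophages, had 52.6, 51.6, 73.7 and 97.0 in hyperthyroid muscle, against 66.3, 78.7, 148 and 70.6 in control muscle, a log2 fold change of -0.36 ± 0.34 (SE). For Csf1r control replicate 9, not control replicate 11, was the highest.

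Lysozyme (Lyz2) had 455, 225, 521 and 918 in hyperthyroid muscle, against 372, 275, 208 and 571 in control muscle. Hyperthyroid replicate 5 was highest and control replicate 9 lowest, and the log2 fold change was 0.50 ± 0.38 (SE, limma adjusted p = 0.671). Cd68, a lysosomal protein used to stain macrophages, had 10.5, 6.48, 29.7 and 77.2 in hyperthyroid muscle, against 5.82, 48.0, 9.64 and 109 in control muscle. The arrays of each group thus spread over more than 10-fold, and the log2 fold change of -0.23 ± 0.93 (SE) has a wide error. The hyperthyroid arrays of Cd68 averaged below the filter on the log2 scale, so Cd68 passed it only through the control arrays. Laptm5, a lysosomal membrane protein of blood cells, had 58.2, 47.6, 37.9 and 44.6 in hyperthyroid muscle, against 48.1, 5.81, 61.4 and 10.6 in control muscle, a log2 fold change of 0.96 ± 0.66 (SE) with 2 low control arrays. On the log2 scale its control arrays averaged below the filter, so Laptm5 passed it on this probe set only through the hyperthyroid arrays. The second probe set of Laptm5 gave 0.23, with control replicate 11 at 32.7 and hyperthyroid replicate 2 at 8.37. The average of both gave 0.60.

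The chains of complement C1q, which tissue macrophages make, gave 0.21 ± 0.43 for C1qa, -0.35 ± 0.51 for C1qb and 0.35 ± 0.43 for C1qc (log2 fold change ± SE). Fcer1g and Tyrobp, signalling adaptors of myeloid receptors, gave 0.03 ± 0.42 and -0.36 ± 0.73. Cybb, the catalytic subunit of the phagocyte NADPH oxidase, gave 0.10 ± 0.47, the leukocyte tetraspanin Cd53 gave 0.15 ± 0.53 and Aif1, a calcium-binding protein of macrophages, gave -0.41 ± 0.82. The groups overlapped in all of these. Aif1 passed the filter only through its control arrays.

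Among the macrophage genes under the filter, Ptprc, the leukocyte common antigen CD45, had 6.72, 35.0, 5.25 and 29.4 in hyperthyroid muscle, against 9.45, 36.9, 7.06 and 64.1 in control muscle. Ccl2, the chemokine that recruits monocytes, had 12.8, 8.03, 17.6 and 36.1 in hyperthyroid muscle, against 50.3, 3.66, 5.93 and 26.9 in control muscle. Neither showed groups that lay apart. The inhibitory Fc receptor Fcgr2b had means of 13.9 ± 18.97 and 26.7 ± 31.4, and the integrin chain Itgam, CD11b, had 3.42 ± 0.975 and 5.22 ± 1.97 (SD, n = 4 hyperthyroid and 4 control arrays).

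Differences between rats of the same group were large for many members. The SD within groups of log2 values was 0.79 for Cd74, 1.07 for RT1-Da, 0.73 for Lyz2 and 1.24 for Mrc1. These exceeded the SD of 98.6%, 99.5%, 97.7% and 99.6% of the genes whose mean log2 level lay within 0.5 of theirs, among which the median SD was 0.24, 0.25, 0.24 and 0.35. Of the 34 tested members, 27 had an SD above the median of genes of like level and 13 an SD above 90% of them. RT1-DMa, RT1-CE10, Csf1r and RT1-T24-3 were among those below that median, with more uniform arrays.

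Among the class II and macrophage genes, the same rats were often high or low. Control replicate 11 was the highest array for 13 of the 34 and the lowest for none. These 13 were 6 class I, 2 class II and 5 macrophage genes (54.5%, 25% and 33.3% of those tested). Hyperthyroid replicate 5 was the highest for 11, of which 5 were class II, 6 macrophage and none class I genes. In class I, control replicate 11 was above the gene's own mean in all 11, but hyperthyroid replicate 5 in only 4 and hyperthyroid replicate 2 in 6. Of all genes tested, 20.3% were highest and 17.9% lowest on control replicate 11, and 11.3% were highest on hyperthyroid replicate 5. Control replicate 8 was the lowest array for 11 members and hyperthyroid replicate 2 for 10, against 11.2% and 11.3% of all genes. In summed intensity the 8 class II genes ran to 1389, 897, 2055 and 2592 on hyperthyroid replicates 1, 2, 3 and 5, against 1059.5, 765, 978 and 2359 on control replicates 7, 8, 9 and 11. The 15 macrophage genes followed the same order of high arrays, with 1407, 771, 1929 and 2589 in hyperthyroid muscle, against 1375, 904, 1051 and 2437 in control muscle.

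**Figure D3:**
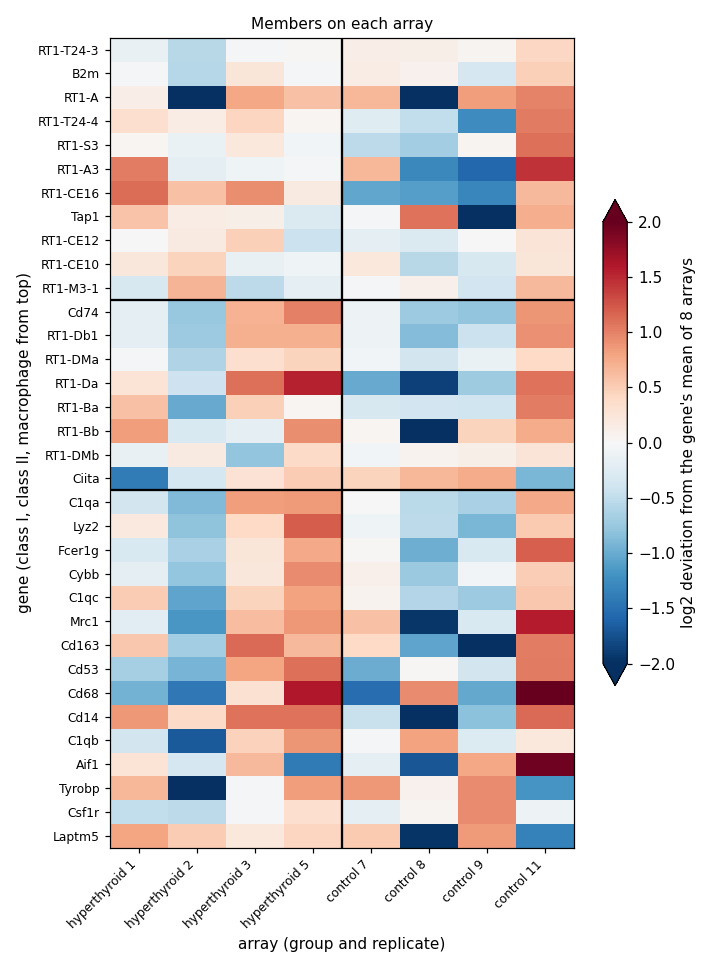
Deviation of each gene's log2(intensity + 3.41) from its mean over 8 arrays (colour, limited to 2 in either direction) for the 34 tested genes (rows, class I, class II and macrophage from the top, each ordered by likeness to Cd74) on the 4 hyperthyroid and 4 control arrays (columns). Most class II and macrophage rows are high on hyperthyroid replicates 3 and 5 and control replicate 11, and low on hyperthyroid replicate 2 and control replicate 8.

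Across the 8 rats, the level of Cd74 went with those of several other members. With C1qa, Pearson's r was 0.978 (exact permutation p = 0.000422, adjusted over 10199 genes 0.253) and Spearman's rho was 0.952 (exact permutation p = 0.00114, adjusted 0.361). With Lyz2 they were 0.939 (exact permutation p = 0.000347, adjusted 0.253) and 0.976 (exact permutation p = 0.000397, adjusted 0.361). With RT1-Db1 they were 0.972 (exact permutation p = 0.00107, adjusted 0.272) and 0.881 (exact permutation p = 0.00724, adjusted 0.467), and with RT1-Da 0.874 (exact permutation p = 0.00818, adjusted 0.463) and 0.714 (exact permutation p = 0.0576, adjusted 0.65). Without the arrays farthest from the median of Cd74, hyperthyroid replicate 5 and control replicate 11, r was 0.967 for C1qa, 0.902 for Lyz2, 0.958 for RT1-Db1 and 0.751 for RT1-Da. With 8 arrays no gene of the 10199 reached an adjusted p under 0.05, and the genes of 1 array share its scaling and its piece of muscle. Cd74 itself left a gap between 375 and 654, so these relations rest in part on 3 high arrays.

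Not all members followed Cd74. After the group means were subtracted, as a description with no test, r with Cd74 was above 0.5 for 6 of 11 class I, 4 of 7 class II and 11 of 15 macrophage genes, against 16.6% of all genes. Among those near or below 0 were Ciita at -0.080, RT1-DMb at -0.016, RT1-M3-1 at -0.030, Csf1r at 0.11 and Laptm5 at -0.25. The 5 genes most like Cd74 on this measure over the 8 arrays were Plxdc2 (0.994), Clic2 (0.993), Col14a1 (0.985), Rgs10 (0.984) and C1qa (0.984). RT1-Db1 was the 9th and RT1-DMa the 35th of 10199.

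**Figure D4:**
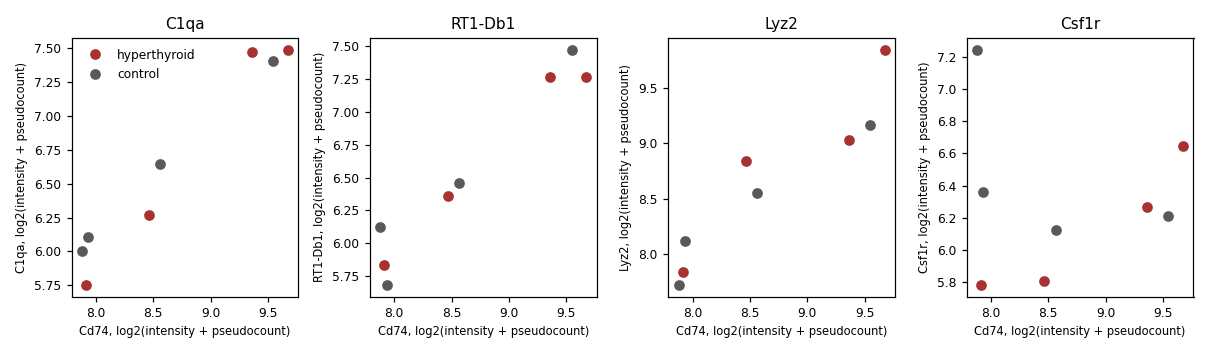
Log2(intensity + 3.41) of C1qa, RT1-Db1, Lyz2 and Csf1r (y axes) against that of Cd74 (x axes), 1 point per rat, with hyperthyroid rats in red and control rats in grey. C1qa, RT1-Db1 and Lyz2 follow Cd74 in rats of both groups, with r = 0.978, 0.972 and 0.939, and Csf1r does not (r = -0.012).

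Markers of other cells differed between the arrays as well. Of the 10 fibroblast markers 9 were tested, none at 0, and their summed intensity was 7074, 5206, 12475 and 34462 on hyperthyroid replicates 1, 2, 3 and 5, against 8104, 3485, 10369.6 and 23229 on control replicates 7, 8, 9 and 11. As with the macrophage genes, hyperthyroid replicate 5 and control replicate 11 were highest and hyperthyroid replicate 2 and control replicate 8 lowest, and the part of connective tissue in these values was not tested. The 11 endothelial markers summed to between 1994 and 3194 in hyperthyroid and between 2150.1 and 3296 in control muscle, with hyperthyroid replicate 5 the lowest of all. The skeletal muscle markers lay below 0 in 10 of 12 cases (median log2 fold change -0.36, none past the adjusted test). At an unadjusted p under 0.05, 7 of the 12 were lower in hyperthyroid muscle (5.21% of all genes), and for 5 the groups lay fully apart (3.21% of all genes). The sums ran from 324469 to 400747 in hyperthyroid and from 397599 to 468821 in control muscle. Array properties moved with the groups too, and their part in the members' values was not tested. The median intensity of an array was 38.8 to 42.0 in hyperthyroid and 43.5 to 54.9 in control muscle, and the Gapdh 3'/5' ratio, a sign of RNA integrity and labelling, was 1.202 to 1.31 in hyperthyroid and 1.33 to 1.46 in control muscle. Control replicate 11 had the highest median and the highest actin 3'/5' ratio (2.16), and hyperthyroid replicate 5 the next highest actin ratio (1.90). Of the markers of other leukocytes on the array, 3 of 15 for T and NK cells, 1 of 5 for B cells, none of 7 for neutrophils and 2 of 6 for dendritic cells lay above the filter.

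The other genes of antigen processing showed no difference past the test. Log2 fold changes were positive for 13 and negative for 7 of the 20 tested (median 0.14). Lgmn, an endosomal protease that trims the invariant chain, had 566, 330.4, 419.7 and 410.0 in hyperthyroid muscle, against 337, 320.2, 249 and 344 in control muscle (log2 fold change 0.45 ± 0.19, SE, limma adjusted p = 0.441). Only hyperthyroid replicate 2 lay within the control range. Calr, the chaperone calreticulin of class I assembly, gave 0.21 ± 0.14, and Rfx5, a subunit of the factor that binds the X box of class II promoters, gave 0.54 ± 0.36.

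In the interferon response, which induces both classes, 10 of 28 tested genes lay above 0 and 18 below, with a median of -0.12, and none passed the test. Socs1, an inhibitor of interferon and cytokine receptor signalling, had 4.08, 9.56, 11.3 and 16.6 in hyperthyroid muscle, against 59.5, 30.0, 54.6 and 57.5 in control muscle. The groups lay fully apart, with hyperthyroid arrays low, and the log2 fold change was -2.005 ± 0.63 (SE, limma adjusted p = 0.296). Socs1 passed the filter of 4.69 only through the control arrays, with a mean log2 value of 4.70 over all 8, and its hyperthyroid values lie near the pseudocount of 3.41, so its separation supports nothing here. The antiviral genes Oas1a and Mx1 gave -0.85 ± 0.37 and -0.92 ± 0.44 (SE, limma adjusted p = 0.441 and 0.486). The groups overlapped for Oas1a and lay fully apart for Mx1, with at most 40.9 in hyperthyroid and at least 52.2 in control muscle. The 2 of the 28 that were fully apart and lower (3.21% of all genes) include Socs1, so no excess is read from this count. Control replicate 11 was the highest array for 13 of the 28.

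Further macrophage and myeloid genes split evenly, with 14 of 27 tested above 0, 13 below and a median of 0.02. Adgre1, the macrophage marker F4/80 of mouse, had 46.5, 38.1, 52.2 and 57.8 in hyperthyroid muscle, against 38.5, 12.9, 17.1 and 31.5 in control muscle (log2 fold change 0.96 ± 0.49, SE, limma adjusted p = 0.527), and the groups overlapped only between 38.1 and 38.5. Stab1, a scavenger receptor, gave 1.04 ± 0.56, and Gas6, a ligand of receptors for the uptake of dying cells, gave -0.32 ± 0.17. Of 11 tested chemokines, cytokines and receptors, 4 were above 0 and 7 below, with a median of -0.14. The chemokine Ccl6 had 324, 44.4, 365 and 354 in hyperthyroid muscle, against 114, 51.6, 35.4 and 143 in control muscle, with hyperthyroid replicate 2 low (log2 fold change 1.45 ± 0.61, SE, limma adjusted p = 0.44). Cxcl12 gave -0.38 ± 0.19 and Il15, a cytokine that muscle makes, gave 0.40 ± 0.22.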

How the data were processed

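Each of 8 rats gave 1 Affymetrix array of muscle RNA, labelled from an oligo(dT) primer per the labels' protocols, which favours the 3' parts of transcripts. The authors deposited linear intensities made with GCOS per the submitters' processing notes, with version and settings not given in the sources used here. The mean of each array was 150 after 2% of values were left out at each end, so the authors' values are scaled to 1 target. Detection calls and scanner values were not used here. The number of arrays limits the precision.

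Values were taken as log2(intensity + 3.41), the 10th percentile of all values, so fold changes of low genes are understated. Of 31099 probe sets, 57 were controls and 20826 carried 1 symbol. The 18625 with a mean log2 value above the 40th percentile, 4.69, were kept, and the brightest kept probe set stood for each of 10200 genes. The test was limma 3.58.1 in R 4.3.3 (lmFit, eBayes with a variance trend, two-sided, Benjamini-Hochberg over all genes, threshold 0.05), checked on simulated data. RefSeq (GRCr8) matched 41 of the 42 members by Entrez identifier, with no change of symbol.

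The members and lists were chosen with earlier results of these data known. Values on each array are given for the 5 lowest p-values per list and for a set named whatever their values, and up to 3 genes are named of each further list. RT1-A2, in that set, has no probe set of its own. Alternatives concerned the pseudocount, scaling, filter, variance model, array weights, probe set rule and arrays left out.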

Additional observations from a re-analysis of the deposited data

Results flagged for a closer look

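Among the 68 groups of 4 arrays formed by the 34 tested members, 4 held an array far from the other 3 on the log2 scale. Chance gives about 1 in 20 groups, so 4 of 68 is near the count that chance gives, and the 4 are listed as a description only. Control replicate 11 was far above the other controls for RT1-Ba (an intensity of 328) and for RT1-CE16 (54.0). Control replicate 8 was far below them for RT1-A (4.82). Hyperthyroid replicate 1 was far above the other hyperthyroid arrays for RT1-A3 (53.3).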

How the results depend on the processing

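No paired analysis was possible because the groups share no replicate number. None of the members passed 0.05 under any of the 21 alternatives with limma, the smallest adjusted p being 0.127, for RT1-Da scaled to the hybridization controls. Of 691 member values under alternatives, 637 kept the sign of the main analysis and 54 did not. With arrays centred on their medians, B2m, RT1-M3-1 and RT1-DMb turned to log2 fold changes of 0.036, 0.051 and 0.026. Scaled to 18 hybridization controls, B2m, RT1-M3-1, RT1-A, RT1-DMb and Cd68 turned to 0.14, 0.15, 0.076, 0.13 and 0.086. These settings moved the median of all genes by 0.22 and 0.32. After quantile normalization RT1-M3-1 was 0.016, with array weights RT1-A and Aif1 were 0.16 and 0.094, and without both control replicates 7 and 11 B2m, RT1-M3-1 and RT1-A were 0.038, 0.060 and 0.46. With 1 array left out at a time, log2 fold changes ran from -1.05 to 0.28 for Aif1, -0.040 to 0.54 for C1qa, -0.70 to 0.15 for C1qb, -0.20 to 0.52 for Cd53, -0.78 to 0.20 for Cd68, -0.20 to 0.38 for Cybb, -0.29 to 0.44 for Fcer1g, -0.60 to 0.57 for Mrc1, -0.95 to 0.38 for RT1-A, -0.086 to 0.66 for RT1-A3. They ran from -0.14 to 0.39 for RT1-Ba, -0.089 to 0.98 for RT1-Bb, -0.032 to 0.27 for RT1-CE12, -0.061 to 0.28 for RT1-DMa, -0.35 to 0.039 for RT1-DMb, -0.0051 to 0.59 for RT1-Db1, -0.43 to 0.018 for RT1-M3-1, -0.19 to 0.40 for RT1-S3, -0.46 to 0.69 for Tap1, -0.81 to 0.31 for Tyrobp. The 7 genes called over all genes became 12 when centred on medians, 114 scaled to the hybridization controls, 11 with no filter, 14 with a robust variance, 1 when a gene's probe sets were averaged, 3 without both control replicates 7 and 11, none without the variance trend, and 0 to 7 with an array left out. The causes of these shifts were not tested. Of 10 further probe sets of members above the filter, 9 had the sign of the brightest one and 1, of RT1-S3, did not. Values near the filter have wide errors, and of the 8 analyses with an array left out Cd68 lay above it in 4, RT1-A3 in 6 and Aif1 in 7, to which their ranges refer.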

Other observations

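The 6 RT1 probe sets that carry several symbols belong to no single gene. The brightest, shared by RT1-A3 and RT1-A2 of the classical class Ia region, read 415, 311, 449 and 435 on hyperthyroid replicates 1, 2, 3 and 5, against 414, 387, 357 and 178 on control replicates 7, 8, 9 and 11. Control replicate 11, the highest array for many members, was the lowest here, and the log2 fold change was 0.32 ± 0.25 (SE, limma adjusted p over probe sets = 0.699). The probe set shared by RT1-A2 and RT1-A1, under the filter, was highest on control replicate 11 (121), with hyperthyroid replicate 2 at 58.6 and the other 6 arrays from 5.63 to 23.3.

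Further cell types showed no gene past the test. Zap70, a kinase of T cell receptor signalling, had 27.4, 39.8, 25.1 and 43.6 in hyperthyroid muscle, against 105, 64.5, 46.1 and 126 in control muscle. Its log2 fold change was -1.18 ± 0.41 (SE, limma adjusted p = 0.336). The groups lay fully apart and lower for 1 of the 3 tested T and NK cell markers, Zap70 (3.21% of all genes). The other 2 markers lay above 0. Lck, another T cell kinase, gave 0.96 ± 0.75 and Cd2 gave 0.31 ± 0.74 (SE). On the log2 scale the control arrays of both averaged below the filter, so both passed it only through the hyperthyroid arrays. Of the mast cell proteases, Cma1 gave 1.07 ± 0.78, but passed the filter only through the hyperthyroid arrays. Cpa3 gave -0.17 ± 0.60, with 309.9 on control replicate 11 and at most 88.2 on any other array. Haemoglobin beta (Hbb) averaged 6269 ± 1620.0 on hyperthyroid arrays and 8508 ± 3542 on control arrays (SD, n = 4 each). Hbb read 12760.0 on control replicate 11, and its log2 fold change was -0.37 ± 0.29 (SE). The other tested erythroid markers, Slc4a1 and Alas2, gave 0.77 ± 0.66 and -0.30 ± 0.45. Prx of myelinating Schwann cells gave -1.67 ± 0.61 (SE, limma adjusted p = 0.364), with overlapping groups. Its hyperthyroid arrays averaged below the filter on the log2 scale, so Prx passed it only through the control arrays. Mbp and S100b of the same list gave 0.46 ± 0.86 and -0.19 ± 0.62. Of the 4 tested Schwann cell markers 1 lay above 0 and 3 below (median -0.18), and all 4 were highest on control replicate 7. Of the 4 tested adipocyte markers 3 lay above 0 and 1 below, with log2 fold changes from -0.16 to 1.48. Among them, Adipoq and Cfd gave 1.09 ± 0.72 and 1.48 ± 0.88 (SE, limma adjusted p = 0.621 and 0.579).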
